A study of Mus musculus with 6 samples.

Results

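The genes described here are 9 macrophage identity genes and lineage regulators: Csf1r, Adgre1, Cd68, Lyz2, Spi1, Cebpa, Cebpb, Maf and Zeb2. They were chosen by name, and together they are 9 of the 39179 genes in the deposited count table. By symbol, 8 were found directly, and Adgre1 was found by its Ensembl identifier because the table lists it under its older symbol, Emr1. All 9 had enough counts to be tested. RNA was measured in 6 libraries of tumor-associated macrophages (TAMs), 3 from tumors of Ptgs-competent (wild-type) cells and 3 from tumors of Ptgs-deficient cells. The products of Ptgs1 and Ptgs2 are the cyclooxygenases (COX-1 and COX-2), which start prostaglandin synthesis, and the Ptgs-deficient cells lacked both. Both kinds of tumor grew from the same BRAF-mutant melanoma cell line in C57BL/6 hosts that were 8 weeks old. Only the tumor cells were edited and the macrophages carried the host genotype throughout, and each library came from a pool of tumors. The comparison addresses how TAMs differ between melanomas with and without cyclooxygenases, and the 9 genes serve in it as a reference for the amount of macrophage RNA.

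Macrophages depend on a small set of genes for their identity. Csf1r encodes the receptor for the growth factors CSF1 and IL-34, which macrophages need to survive. Its expression, like that of the surface and lysosomal proteins used to recognise these cells, is driven by transcription factors of several families: PU.1 (encoded by Spi1), the C/EBP factors, the large MAF factors and the zinc finger repressor ZEB2. Tumors hold macrophages that derive largely from blood monocytes, and monocytes share several of these genes. The cells measured here were sorted as live CD45+ CD11b+ F4/80+ cells without NK1.1, Ly6G or high Ly6C. F4/80 is the protein of Adgre1, so the sort used the product of 1 of the 9 genes.

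The libraries held between 4431184 and 8760679 counts, and between 7794 and 10714 genes had a count. Libraries were made from 800 pg of total RNA by a 3′ end counting kit, so a count does not scale with transcript length. Levels are counts relative to library size (CPM) after TMM scaling, a scaling that sets most genes level between libraries. In edgeR's quasi-likelihood test, a call needed both an FDR of at most 0.05 and a log2 fold change of at least 1.5, up or down. FDR is the p-value adjusted over all genes tested. Of 8793 genes tested, 19 were called. The common biological coefficient of variation was 1.26. The labels do not say whether the pools within a group came from separate experiments, so p-values measure the spread between these 3 libraries a group.

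None of the 9 genes was called, against 0.216% of all genes tested (edgeR's quasi-likelihood test). At an unadjusted p below 0.05 there were 2 of the 9, Adgre1 and Cebpb, both higher in TAMs from Ptgs-deficient tumors, and 8.83% of all genes passed that level. Only Adgre1 had CPM that did not overlap between the groups, as held for 19% of all genes. The fitted log2 fold change was above 0 for 7 genes and below 0 for Spi1 and Maf, with a median of 0.57 beside 0.018 over all genes tested, but Maf turned above 0 with scaling to housekeeping genes. Scaling to the summed 9 genes or to other macrophage transcripts moved the median of all genes to -0.57 and -0.90, and single genes moved by different amounts. Csf1r (both scalings) and Lyz2, Cebpa and Zeb2 (the second) then had fitted values below 0 but above those medians. Without Ptgs-competent replicate 3 the median of the 9 was 0.20, beside 0.13 over all genes tested.

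Summed over the 9 genes, 1.28%, 1.22% and 0.483% of all counts fell to them in Ptgs-competent replicates 1, 2 and 3, and 1.31%, 1.10% and 1.41% in Ptgs-deficient replicates 1, 2 and 3. After TMM scaling the sums were 13530, 12291 and 4612 CPM against 12541, 11425 and 14949 CPM. Ptgs-competent replicates 1 and 2 lay within the range of the Ptgs-deficient libraries, and replicate 3 lay far below every other library. The group means were 10144 ± 4831 CPM (SD, n = 3) and 12972 ± 1801 CPM (SD, n = 3), with an exact two-sided permutation p of 0.5, where 0.1 is the smallest that 3 against 3 libraries can give. Without replicate 3 the Ptgs-competent mean was 12911 CPM. In these bulk libraries, fewer cells of a type and less RNA per cell cannot be told apart.

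Ptgs-competent replicate 3 was the lowest of its group for all 9 genes and for 34.1% of all genes tested. So it was for 16 of 18 other macrophage transcripts, all 4 erythroid genes tested and both tested genes of the platelet list. The deficit was uneven. The mean of the other Ptgs-competent libraries was 17.2 times its level for Cd68 and 6.37 times for Csf1r, but 1.99 times for Cebpa and 1.89 times for Cebpb. The same library held the highest sum of 8 fibroblast genes (949.7 CPM, against 336 and 284 CPM in replicates 1 and 2 and 42.7 to 68.8 CPM in the Ptgs-deficient libraries), led by Sparc at 600.3 CPM. The part of these transcripts in the low member levels was not tested. Without this library 3 of the 9 genes had CPM that did not overlap between groups (Adgre1, and Spi1 and Csf1r in the other direction), against 28.5% of the genes tested in that fit. At an unadjusted p below 0.05 there were then Adgre1 and Cebpb, both higher, and Spi1, lower, against 8.86% of genes, and none was called.

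**Figure D1:**
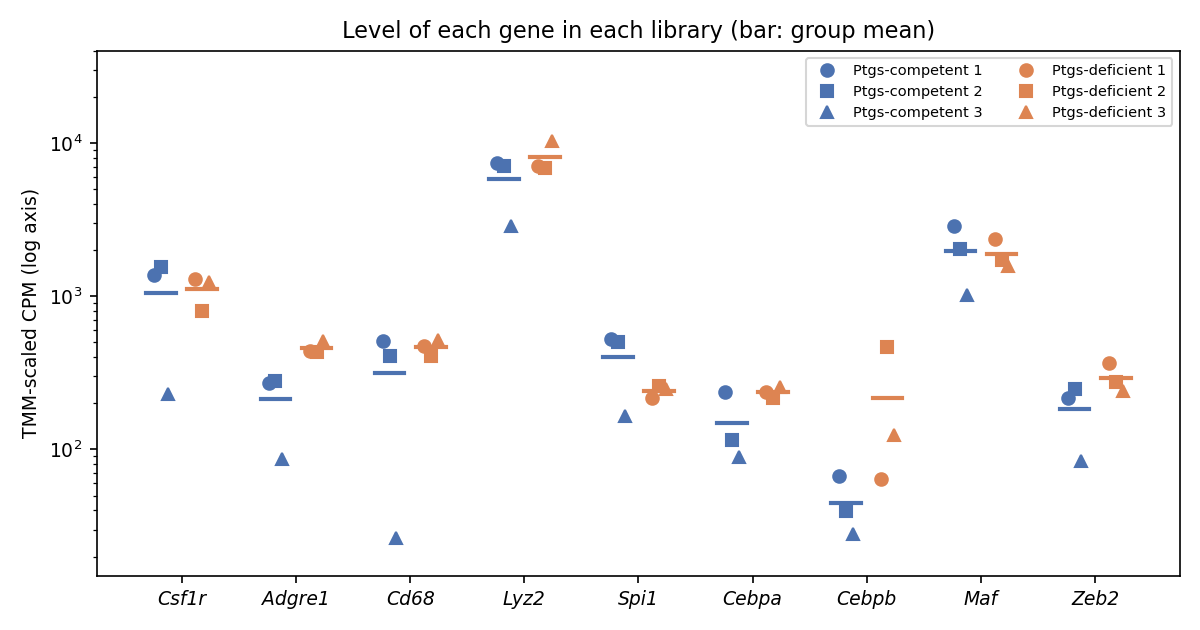
TMM-scaled CPM (log axis) of each of the 9 genes in each library, blue for Ptgs-competent and orange for Ptgs-deficient, with the marker giving the replicate and the bar the group mean. Ptgs-competent replicate 3 is the lowest blue point for every gene, down to 26.5 CPM for Cd68, and Adgre1 is the only gene whose groups do not overlap.

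In the order of CPM over all 6 libraries, Lyz2 came first with a mean of 6932 CPM (rank 9 of 8793 genes tested), followed by Maf with 1935 CPM (rank 56) and Csf1r with 1083 CPM (rank 124). This order of 3 held within each of the 6 libraries, with Cd68 below Csf1r in each. Cd68 (390.0 CPM), Adgre1 (337 CPM) and Spi1 (319.7 CPM) came next, and their order changed between libraries: Spi1 counts exceeded Adgre1 counts in each Ptgs-competent library and fell short of them in each Ptgs-deficient library. Zeb2 (238 CPM) and Cebpa (192 CPM) were also not ordered, since Cebpa was the higher in 3 libraries and Zeb2 in 3. Cebpb was lowest with 131 CPM (rank 1189), but its place varied: in Ptgs-deficient replicate 2 it exceeded Adgre1, Cd68, Spi1, Zeb2 and Cebpa, and in Ptgs-competent replicate 3 Cd68 was the lowest.

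Csf1r, the receptor tyrosine kinase for CSF1, lies on the plus strand of chromosome 18 (GRCm38, GENCODE M21, 61100598 to 61132149). Its level was 1379, 1559 and 231 CPM in TAMs from Ptgs-competent tumors and 1290, 797 and 1244 CPM in TAMs from Ptgs-deficient tumors. All Ptgs-deficient values lay below replicates 1 and 2 and above replicate 3 of the Ptgs-competent group. The fitted log2 fold change was 0.072 ± 0.57 (SE; 95% interval -1.20 to 1.35; FDR 0.9995 by edgeR's quasi-likelihood test), and it turned to -0.35 without Ptgs-competent replicate 3. Hmgxb3 overlaps the end of Csf1r on the other strand, and the 873 shared bases hold the 3′ ends of both, where the kit counts. Reads there may not be told apart. The counts of Hmgxb3 (0 to 292) were small beside those of Csf1r (1070 to 9498).

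The growth factors that act on this receptor had few counts, unevenly spread over the libraries. Csf1 had 85, 0 and 99 counts with Ptgs-competent tumors and 0, 34 and 67 with Ptgs-deficient tumors. Il34, the other ligand, had 1, 170 and 234 counts against 0, 121 and 0. In Ptgs-competent replicates 2 and 3 Il34 stood at 27.9 and 50.4 CPM. Of 12 myeloid growth factors and receptors, 8 were tested, none was called and none had an unadjusted p below 0.05. The smallest p-values belonged to Csf2rb, the common beta chain of the GM-CSF receptor (log2 fold change -0.58 ± 0.49, SE), to Csf2ra, its alpha chain (0.74 ± 0.69), to Il34 (-2.44 ± 2.68) and to Flt3l (2.22 ± 2.69). Kit, a receptor of the same family as Csf1r, and Csf3 had 0 counts in all 6 libraries. Flt3, another such receptor, had 35 counts in Ptgs-competent replicate 1 and 0 in the other libraries.

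Of 8 genes that carry or end the signal of the CSF1 receptor, all were tested, 4 had a fitted change above 0, and none was called or had an unadjusted p below 0.05. Plcg2, a phospholipase C, was the only one without overlap: 60.2, 64.0 and 13.4 CPM against 91.2, 93.4 and 139 CPM (1.23 ± 0.69, SE; FDR 0.789). The other small p-values were those of Inpp5d, which encodes the inhibitory phosphatase SHIP1 (-0.90 ± 0.62), Grb2, an adaptor (0.45 ± 0.37), and Pik3cd, a catalytic subunit of PI3K (0.52 ± 0.47).

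Adgre1, which encodes F4/80, an adhesion G protein-coupled receptor, lies on the plus strand of chromosome 17 (57358691 to 57483527). Its level was 272, 281 and 86.9 CPM in TAMs from Ptgs-competent tumors and 439.9, 432 and 508 CPM in TAMs from Ptgs-deficient tumors. Every Ptgs-deficient library lay above every Ptgs-competent library. Its log2 fold change was 1.11 ± 0.44 (SE; 95% interval 0.12 to 2.10; unadjusted p = 0.0318), which did not pass adjustment over all genes (FDR 0.456 by edgeR's quasi-likelihood test). Without Ptgs-competent replicate 3 it was 0.78. Its relative Adgre5, which encodes CD97, was 124, 176 and 135 CPM against 389.9, 333 and 303 CPM (1.24 ± 0.34; FDR 0.236), again without overlap. Adgre4, a further relative, had at most 21.6 CPM in a library.

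Cd68, which encodes a glycoprotein of late endosomes and lysosomes, lies on the minus strand of chromosome 11 (69664213 to 69666153). It had 510.0, 405 and 26.5 CPM in TAMs from Ptgs-competent tumors and 475, 408 and 516 CPM in TAMs from Ptgs-deficient tumors. Apart from Ptgs-competent replicate 3 all libraries lay between 405 and 516 CPM. The log2 fold change of 0.57 ± 0.75 (SE; 95% interval -1.10 to 2.24; FDR 0.9995) was 0.075 without that library. The related lysosomal membrane proteins were less uneven. Lamp1 had 969, 1145 and 641 CPM against 1382, 1335 and 1831 CPM (0.72 ± 0.32; FDR 0.555), and Lamp2 had 209, 273 and 169 CPM against 410.4, 432 and 313 CPM (0.83 ± 0.34; FDR 0.471), both without overlap and neither called.

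Lyz2 encodes the lysozyme of macrophages, an enzyme that cleaves bacterial cell walls, and lies on the minus strand of chromosome 10 (117277331 to 117282321) beside its duplicate Lyz1 (117287797 to 117292868), the lysozyme best known from Paneth cells. Counts were assigned to both, and the ratio of these counts did not overlap between the groups, so the RefSeq sequence before their starts is shown, with that of Zeb2, the other of the 9 genes with a match to the letters searched. RefSeq promoter sequence (GRCm38.p6) was matched by symbol for 5 of the 9 genes (Cd68, Lyz2, Cebpa, Cebpb and Zeb2) and for Lyz1. The window of 201 bases that runs from 250 to 50 bases before the RefSeq start was searched on both strands for letters typical of the factors among the 9 genes: AGGAAG for PU.1, TTGCNNAA for C/EBP, TGCTGA for MAF and CAGGTG for ZEB2, where N is any base. The windows are minus-strand sequence, printed 5′ to 3′, of chr10:117282322-117282522 for Lyz2, chr10:117292918-117293118 for Lyz1 and chr2:45117492-45117692 for Zeb2. Their RefSeq starts are 117282272 for Lyz2, 117292868 for Lyz1 and 45117442 for Zeb2, and all distances are counted from these, which for Lyz2 and Zeb2 differ from the GENCODE ends of the genes. Capitals mark the matches.
Lyz2: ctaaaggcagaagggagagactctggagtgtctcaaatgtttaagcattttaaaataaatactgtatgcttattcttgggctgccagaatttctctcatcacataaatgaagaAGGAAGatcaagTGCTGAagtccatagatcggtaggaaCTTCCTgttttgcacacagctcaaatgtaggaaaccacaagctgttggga
Lyz1: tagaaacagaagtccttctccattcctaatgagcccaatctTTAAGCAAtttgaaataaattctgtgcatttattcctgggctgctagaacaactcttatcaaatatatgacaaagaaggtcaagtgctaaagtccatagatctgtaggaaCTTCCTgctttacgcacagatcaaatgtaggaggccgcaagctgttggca
Zeb2: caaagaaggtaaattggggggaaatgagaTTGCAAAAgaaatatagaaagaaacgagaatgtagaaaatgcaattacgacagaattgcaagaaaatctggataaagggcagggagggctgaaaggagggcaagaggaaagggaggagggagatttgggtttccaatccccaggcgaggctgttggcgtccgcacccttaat

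Lyz2 holds the PU.1 letters in 2 places, at 137 to 132 bases before the start and, on the other strand, at 99 to 94, with the MAF letters between them at 125 to 120. Lyz1 keeps the PU.1 match at 99 to 94 and holds the C/EBP letters at 209 to 202. Zeb2 holds the C/EBP letters once, at 221 to 214 bases before its first listed start, and the window of another listed start, 45110277 (chr2:45110327-45110527), holds the PU.1 letters at 210 to 205. None of the 4 motifs was found in the windows of Cd68, Cebpa or Cebpb, and the ZEB2 letters were found in none of the 6 genes, the further listed starts of Zeb2 included. Among all 32851 windows of this length, 24.0% hold the PU.1 letters, 8.17% the C/EBP letters, 13.2% the MAF letters and 14.5% the ZEB2 letters. Base by base and without gaps, the windows of Lyz2 and Lyz1 share 103 of 201 bases.

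Lyz2 had 7427, 7108 and 2884 CPM in TAMs from Ptgs-competent tumors and 7105, 6839 and 10228 CPM in TAMs from Ptgs-deficient tumors. Ptgs-competent replicate 3 was again the lowest and Ptgs-deficient replicate 3 the highest, and the other 4 libraries lay between 6839 and 7427 CPM. The log2 fold change was 0.47 ± 0.41 (SE; 95% interval -0.44 to 1.39; FDR 0.9995), and 0.20 without Ptgs-competent replicate 3. Lyz1 had 201, 34.0 and 33.8 CPM against 303, 332 and 559.95 CPM (2.15 ± 0.69; FDR 0.314), with no overlap and no call. Counts of Lyz1 per count of Lyz2 were 0.0270, 0.00478 and 0.0117 with Ptgs-competent tumors and 0.0427, 0.0486 and 0.0547 with Ptgs-deficient tumors. The ratio was 4.22 times as high in the Ptgs-deficient group (geometric means), and it does not depend on how the libraries were scaled. It was taken up because it did not overlap, which with 3 against 3 libraries fixes the exact p, so no p is given. Of the ratios of Lyz2 to the 4891 other tested genes with a count in every library, 19.3% did not overlap. The transcripts are alike: 16.9% of the stretches of 50 bases in the last 500 bases of the Lyz2 transcript also occur in Lyz1, so the split of reads between them is uncertain.

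Spi1 encodes PU.1, the ETS factor on which myeloid development depends, and lies on the plus strand of chromosome 2 (91082390 to 91115756). It was 1 of the 2 genes with a fitted change below 0. Its level was 527, 503 and 164 CPM in TAMs from Ptgs-competent tumors and 216, 258 and 250 CPM in TAMs from Ptgs-deficient tumors. The Ptgs-deficient values were less than those of replicates 1 and 2 of the Ptgs-competent group and above that of replicate 3. Its log2 fold change was -0.72 ± 0.44 (SE; 95% interval -1.70 to 0.26; unadjusted p = 0.131; FDR 0.857 by edgeR's quasi-likelihood test). It was -1.04 without Ptgs-competent replicate 3, and it stayed below 0 under all 18 alternatives run. Of the related ETS genes, Spib had 0 counts in every library, and Spic had 3, 53 and 0 counts against 189, 0 and 0.

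Cebpa encodes C/EBP-alpha, a factor of the myeloid progenitor, and lies on the plus strand of chromosome 7 (35119293 to 35121928). It had 239, 116 and 89.2 CPM against 236, 216 and 254 CPM. The Ptgs-deficient libraries lay close together, and the Ptgs-competent libraries spread from their level downward. The log2 fold change was 0.67 ± 0.44 (SE; 95% interval -0.31 to 1.65; FDR 0.905). Without Ptgs-competent replicate 1 it was 1.2, with an unadjusted p of 0.0191 and an FDR of 0.296, and without Ptgs-competent replicate 3 it was 0.45.

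Cebpb encodes C/EBP-beta, which macrophages induce on activation, and lies on the plus strand of chromosome 2 (167688915 to 167690418). It had 66.6, 39.6 and 28.0 CPM in TAMs from Ptgs-competent tumors and 64.2, 465 and 124 CPM in TAMs from Ptgs-deficient tumors. A single library, Ptgs-deficient replicate 2, stood far above the rest, and Ptgs-deficient replicate 1 lay at the level of Ptgs-competent replicate 1. Its log2 fold change was the largest of the 9, at 2.28 ± 0.73 (SE; 95% interval 0.66 to 3.91; unadjusted p = 0.0106; FDR 0.306 by edgeR's quasi-likelihood test). Without Ptgs-deficient replicate 2 it was 1.07, with an unadjusted p of 0.231. With no filter on low counts it was called (2.28, FDR 0.0144), the only call of any of the 9 genes under the alternatives. Cebpb shares 908 bases with Tmem189 on the other strand, and Tmem189 had 1464, 576 and 167 counts against 926, 1754 and 1070, as many as or more than Cebpb in 5 of 6 libraries. The shared bases hold the starts of both genes and not their 3′ ends, where the kit counts. The strand setting of the counting is not stated, so any reads in the shared bases may not be told apart. Of the relatives, Cebpd had 85.4, 57.9 and 62.9 CPM against 25.0, 139.7 and 101 CPM (0.36 ± 0.68), and Cebpe and Cebpg had at most 18.4 and 46.6 CPM in a library.

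Maf encodes c-MAF, a large MAF factor of resident-type macrophages, and lies on the minus strand of chromosome 8 (115682942 to 115707794). It had 2892, 2034 and 1017 CPM in TAMs from Ptgs-competent tumors and 2349, 1735 and 1584 CPM in TAMs from Ptgs-deficient tumors. The Ptgs-deficient values fell inside the range of the Ptgs-competent values. A log2 fold change of -0.068 ± 0.39 (SE; 95% interval -0.95 to 0.81; FDR 0.9995) was fitted, which turned to 0.028 with housekeeping scaling. Among other MAF genes, the small MAF gene Mafg had 290.1, 228 and 172 CPM against 83.0, 186 and 85.5 CPM (-0.96 ± 0.45; FDR 0.619), and Mafa and Nrl had 0 counts in all libraries.

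Zeb2, a zinc finger repressor needed for macrophage identity in several tissues, lies on the minus strand of chromosome 2 (44983632 to 45117395). It had 218, 246 and 84.1 CPM against 366, 276 and 240 CPM. The groups overlapped only through Ptgs-competent replicate 2 and Ptgs-deficient replicate 3. Its log2 fold change was 0.69 ± 0.45 (SE; 95% interval -0.31 to 1.68; FDR 0.904), and 0.39 without Ptgs-competent replicate 3. Its antisense gene Zeb2os (listed as Gm13476) had 277, 318 and 292 counts against 261, 366 and 348, beside 390 to 2316 counts for Zeb2. In Ptgs-competent replicate 3 these were 292 and 390 counts. Zeb2os lies at 45110707 to 45114087, near the start of Zeb2 and far from the 3′ end of Zeb2. Any reads in the shared bases may likewise not be told apart. Zeb1, its relative, had at most 54.3 CPM in a library.

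**Figure D2:**
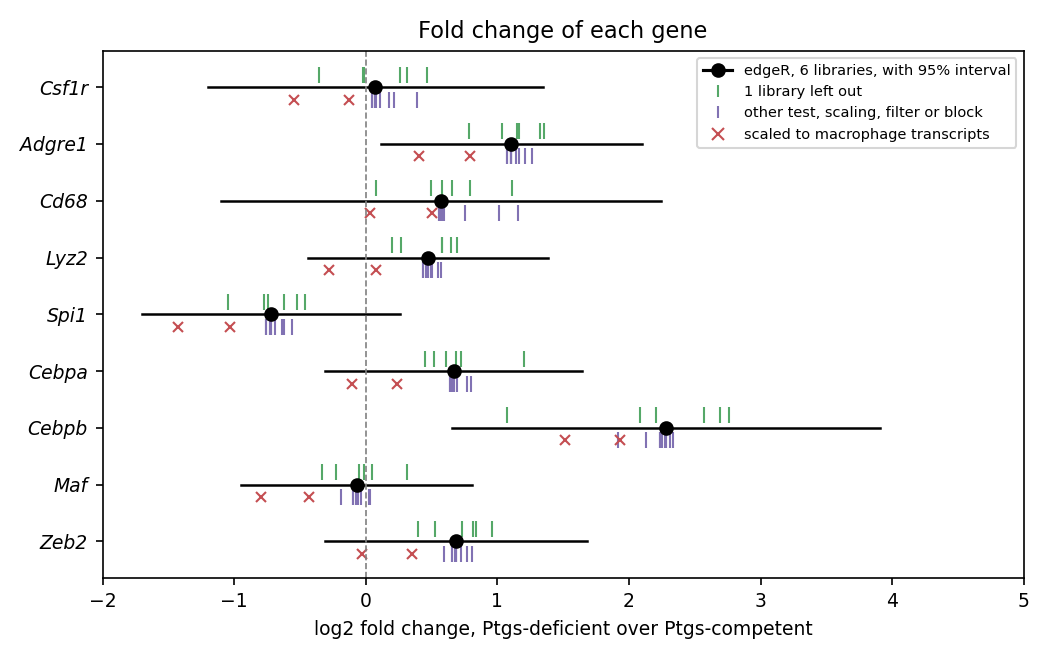
Log2 fold change of each gene, Ptgs-deficient over Ptgs-competent (black point, edgeR; line, 95% interval), with the values when 1 library is left out (green), with another test, scaling, filter or block (purple) and with scaling to macrophage transcripts (red). Only the intervals of Adgre1 (0.12 to 2.10) and Cebpb (0.66 to 3.91) leave out 0, and the points of Adgre1, Cd68, Cebpb and Spi1 stay on one side of 0.

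Within a library, the share of each gene in the summed counts of the 9 does not depend on the scaling between libraries. Adgre1 made up 2.01%, 2.29% and 1.88% of the sum with Ptgs-competent tumors and 3.51%, 3.78% and 3.40% with Ptgs-deficient tumors. Spi1 made up 3.89%, 4.09% and 3.57% against 1.72%, 2.26% and 1.67%. These were the 2 of 9 genes whose shares did not overlap, beside 17.3% of all tested genes when counts are taken per count of the 9. The share of Adgre1 was 1.73 times as high and that of Spi1 0.485 times as high in the Ptgs-deficient group (geometric means). No p is given, since both were picked for not overlapping, which fixes the exact p. Ptgs-competent replicate 3, low in all 9 levels, lay with its group in both shares. These genes were singled out after their values were seen.

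The other shares overlapped. Lyz2 made up 54.9% to 62.5% of the sum in the Ptgs-competent libraries and 56.7% to 68.4% in the Ptgs-deficient libraries, so it weighs most in the denominator. Maf made up 16.5% to 22.1% against 10.6% to 18.7%. Csf1r ranged from 5.00% to 12.7% against 6.97% to 10.3%, and Cd68 from 0.575% to 3.77% against 3.45% to 3.79%. When Lyz2 was left out of the sum, the shares of Cd68 and Zeb2 also ceased to overlap, both higher in the Ptgs-deficient libraries, while those of Adgre1 and Spi1 still did not, beside 15.8% of all tested genes per count of these 8. Cd68 and Zeb2 were apart only narrowly. The highest Ptgs-competent and lowest Ptgs-deficient shares were 8.36% and 8.74% for Cd68, and 4.87% and 5.08% for Zeb2.

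**Figure D3:**
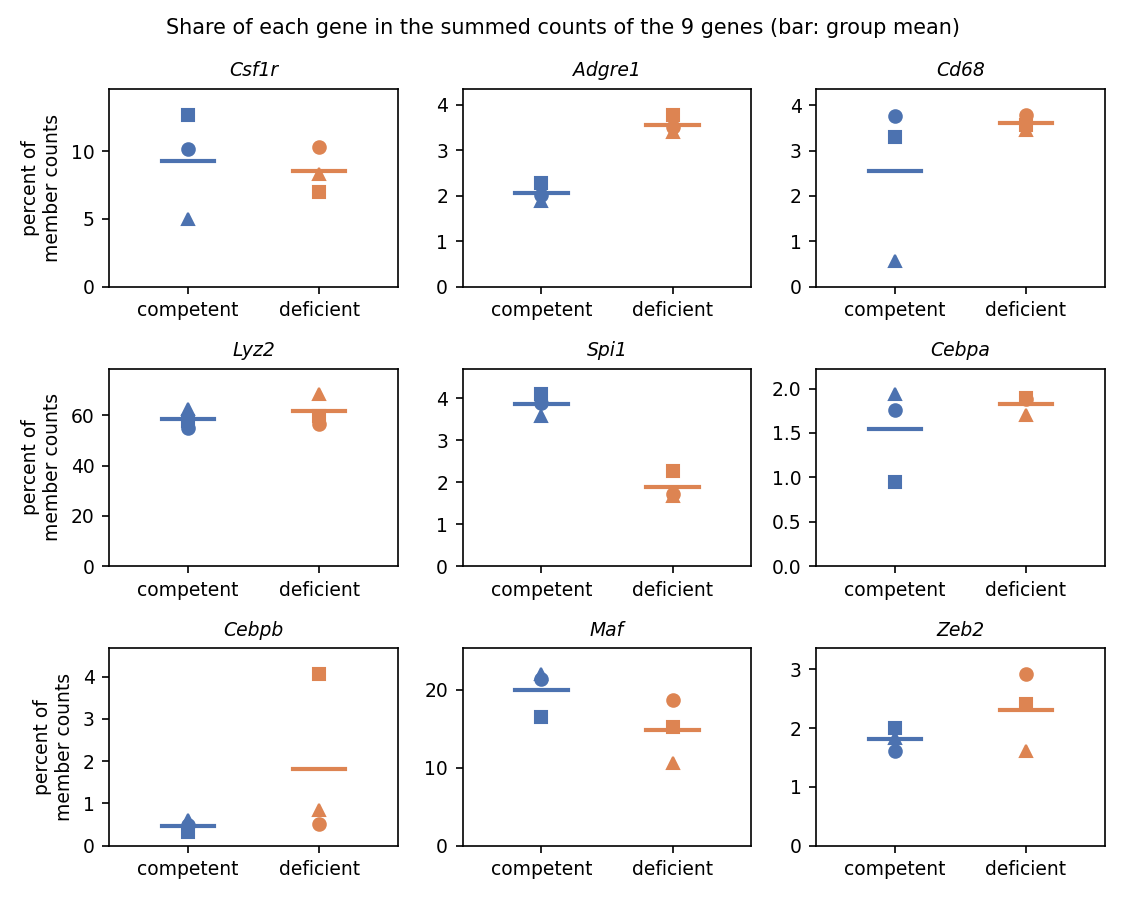
Percent that each gene makes up of the summed counts of the 9 genes, per library (blue, Ptgs-competent; orange, Ptgs-deficient; circle, square and triangle for replicates 1, 2 and 3; bar, group mean), with each axis starting at 0. The shares of Adgre1 (mean 2.06% against 3.56%) and Spi1 (3.85% against 1.88%) are apart, and those of the other 7 genes overlap.

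Pairs of the 9 genes were compared in the same way. Counts of Spi1 per count of Adgre1 were 1.93, 1.79 and 1.89 with Ptgs-competent tumors and 0.491, 0.598 and 0.491 with Ptgs-deficient tumors. The ratio was 3.57 times as high in the Ptgs-competent group, given as a description with no test, since this pair was picked because the shares of both genes had been seen apart in opposite directions. Of all 36 pairs, 12 had ratios that did not overlap between groups, and Spi1 was in 7 of them, relatively lower in the Ptgs-deficient libraries each time. Among all pairs of the 4892 tested genes with a count in every library, 19.9% had ratios that did not overlap. Against the other 4891 of these genes the ratios of Spi1 did not overlap for 21.0%, close to that share, and those of Adgre1 did not for 38.8%. Among the 9 genes, the only partner of Spi1 with overlap was Csf1r. There Spi1 counts per Csf1r count were 0.382, 0.323 and 0.713 against 0.167, 0.324 and 0.201. Maf was relatively lower in 4 pairs and relatively higher only against Spi1. Counts of Cebpa per count of Spi1 were 0.453, 0.231 and 0.543 against 1.09, 0.836 and 1.02. The pairs share genes and are not independent of each other.

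Patterns were also compared over the 6 libraries by the root mean square difference of centred log2 CPM, among 2984 other genes with a mean of at least 50 CPM. Among the genes nearest to Maf were Polr1d (0.17 log2 units), Rab14, Srsf3 and Atp6ap1. The nearest to Spi1 were Apoc2 (0.081), Mif, Stub1, Mlec and Picalm. The nearest to Csf1r were Lcp1 (0.21), Fgr, Id2, Lilrb4 and P4ha1. Among the 9 genes themselves, Adgre1 and Zeb2 were the closest pair (0.35) and Spi1 and Cebpb the farthest (1.47). All these values come from the same 6 libraries, and many genes share the low point in Ptgs-competent replicate 3.

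Other transcription factors of myeloid cells were compared from a list of 34, of which 25 were tested. None was called, against 0.216% of all genes tested. At an unadjusted p below 0.05, 5 were higher and 1 was lower, beside 8.83% of all genes in either direction. The higher genes with the smallest p were Egr1, an immediate early factor (178, 215 and 299.6 CPM against 615, 1149.8 and 1219.8 CPM; 2.11 ± 0.38, FDR 0.0762), Klf4, a Kruppel-like factor of monocytes (249, 319 and 164 CPM against 1092, 918 and 709.97 CPM; 1.89 ± 0.36, FDR 0.0773), Egr2 (2.32 ± 0.46, FDR 0.0924) and Nr4a1, a nuclear receptor induced by stimulation (1.87 ± 0.39, FDR 0.107). The fifth was Irf4, an interferon regulatory factor, with 0 counts in every Ptgs-competent library and 82, 312 and 155 counts in the Ptgs-deficient libraries (FDR 0.267), also named after its values were seen. Without Ptgs-competent replicate 3, Egr1 was called (2.39 ± 0.38, FDR 0.0469). Of the 25 tested, 7 had CPM that did not overlap, beside 19% of all genes. The lower one was Nr1h3, the liver X receptor alpha, which was outside the naming rule and was singled out after its values were seen (184, 122 and 125 CPM against 50.7, 25.1 and 66.6 CPM; -1.60 ± 0.55, FDR 0.369).

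Among 21 paralogs of the 9 genes, 14 were tested and none was called, against 0.216% of all genes tested. At an unadjusted p below 0.05 there were 4, beside 8.83% of all genes in either direction. They were Adgre5, Lyz1, Lamp2 and Lamp1, all higher in the Ptgs-deficient libraries. The same 4 had CPM that did not overlap, beside 19% of all genes. Over a list of 18 other macrophage transcripts the sum was 22204, 20398 and 10048 CPM in TAMs from Ptgs-competent tumors and 28836, 29105 and 32177 CPM in TAMs from Ptgs-deficient tumors, without overlap (exact two-sided permutation p = 0.1, the smallest possible), while the sums of the 9 overlapped. Of these 18 genes 10 did not overlap, beside 19% of all genes, and 9 were higher at an unadjusted p below 0.05, beside 8.83% of all genes in either direction. None was called. The fitted change was above 0 for 14 and below 0 for 4, which were named after their values were seen: Ms4a7 (-0.47 ± 0.35), Ptprc (-0.32 ± 0.40), Aif1 (-0.21 ± 0.34) and Mertk (-0.091 ± 0.46). Without Ptgs-competent replicate 3, 11 did not overlap and 8 were higher at that level, beside 28.5% and 8.86% of the genes tested in that fit. Their median log2 fold change over all libraries was 0.86, beside 0.57 for the 9, and without that replicate it was 0.63, beside 0.20. Cd14, a co-receptor for lipopolysaccharide, was 279, 187 and 118 CPM against 568, 569 and 394 CPM (1.39 ± 0.39, FDR 0.241), and Itgam, which encodes CD11b of the sort, was 603, 504 and 309 CPM against 892, 1150.2 and 1115 CPM (1.16 ± 0.34, FDR 0.261). Ctss, a lysosomal protease (1.19 ± 0.39), and C1qb, a complement chain (1.08 ± 0.36), had the next smallest p. None of 13 housekeeping genes was called, and their median was 0.48.

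When libraries were scaled to these 18 transcripts instead of TMM, a choice made after seeing the data, Spi1 was at -1.43 ± 0.37 (SE; FDR 0.158), beside the median of -0.90 over all genes tested. Relative to that median, Spi1 lay 0.53 lower on the log2 scale, Maf 0.096 higher, Csf1r 0.35 higher and Adgre1 1.30 higher. Cd68, Lyz2, Cebpa, Cebpb and Zeb2 lay 0.62 to 2.41 higher. None of the 9 was called on that scale.

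Genes listed as markers of other cells differed between the same libraries. The sum of 6 monocyte genes was 527, 466 and 258 CPM in TAMs from Ptgs-competent tumors and 1452, 2369.8 and 1925 CPM in TAMs from Ptgs-deficient tumors, and 1 of 5 tested was called, Plac8 (56.9, 109 and 112 CPM against 598, 1183 and 769 CPM; 3.20 ± 0.42, FDR 0.0230). Ccr2, the other most abundant gene of that list, had 387, 238 and 114 CPM against 750, 865 and 909 CPM. Vcan of the same list lay the other way without overlap, at 26.6, 85.2 and 31.0 CPM against 0, 17.1 and 0 CPM (-3.05 ± 2.13, FDR 0.935), and it was named after its values were seen. Genes of the platelet list summed to 11822, 9764 and 5810 CPM against 2889, 2618 and 3249 CPM, nearly all from Pf4. Ppbp was called lower (-5.99 ± 0.85, FDR 0.0324), as was Pf4 without Ptgs-competent replicate 3 (-1.73 ± 0.25, FDR 0.0407). Of the same list, Gp9 and Gp1bb had 0 counts. Itga2b, named after its values were seen, had 76 counts in Ptgs-competent replicate 3 and 0 elsewhere. The sum is therefore not read as an amount of platelets. Fibroblast genes summed to 284 to 949.7 CPM against 42.7 to 68.8 CPM (Lum at 0), erythroid genes to 225 to 698 CPM against 18.2 to 125 CPM (Hbb-bs and Hba-a1 the most abundant, Alas2 at 0), and endothelial genes to 92.9 to 197 CPM against 37.3 to 71.9 CPM (Pecam1 the most abundant, Cdh5 at 0). Their part in the levels of the 9 genes was not tested.

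Other defining markers were at or near 0. Ly6g, Mpo and Elane of neutrophils, Cd3e, Cd3g, Cd4 and Cd8a of T cells, Ncr1 of NK cells, Zbtb46 and Xcr1 of dendritic cells, and Mlana, Pmel, Tyr, Dct and Sox10 of melanoma cells had 0 counts in all 6 libraries. In a library 3 counts stand for 0.357 to 0.647 CPM after TMM scaling, which is the level that a count of 0 allows, for counting error only. The T cell, B cell, dendritic cell, melanoma and keratinocyte lists summed to at most 38.9, 26.8, 31.2, 44.3 and 14.7 CPM in a library. Of these only the melanoma list did not overlap, at 1.91, 0 and 0.647 CPM against 10.6, 44.3 and 18.2 CPM, all from Mitf (4.80 ± 2.43, FDR 0.703). The NK cell list summed to 2.07 to 2.37 CPM against 16.8 to 31.6 CPM, from Klrk1 and Gzma. The neutrophil list still summed to 621 to 724 CPM against 452 to 532 CPM, with S100a8 and S100a9, which monocytes also express, as its most abundant genes over the 6 libraries. Retnlg of that list, the most abundant of them in Ptgs-deficient replicate 3, lay the other way without overlap, at 20.2, 59.9 and 16.2 CPM against 123, 114 and 180 CPM (2.11 ± 0.66, FDR 0.298), and it too was named after its values were seen. The set of 9 summed to 4612 to 14949 CPM in the same libraries, and all 9 genes had counts in each of them, so markers of the labelled cell type were present in every library.

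**Figure D4:**
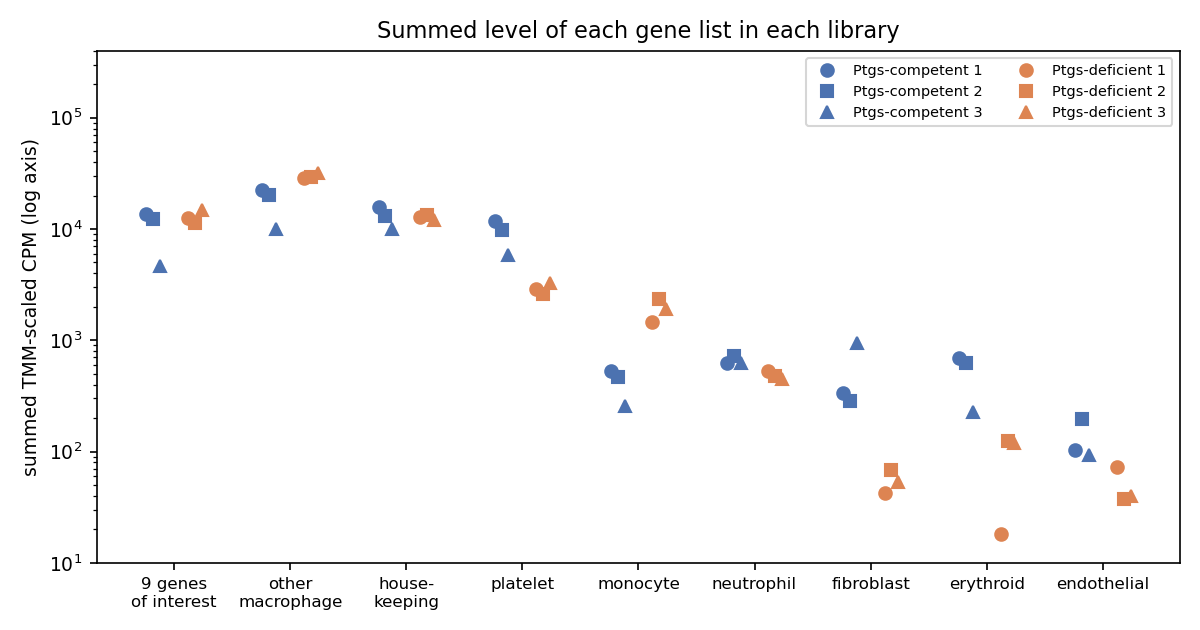
Summed TMM-scaled CPM (log axis) of the 9 genes, of other macrophage and housekeeping lists and of markers of other cells, in each library (blue, Ptgs-competent; orange, Ptgs-deficient; marker, replicate). The 9 genes overlap between groups apart from Ptgs-competent replicate 3 at 4612 CPM. The other macrophage and monocyte sums are higher, and the platelet-list (nearly all Pf4) and fibroblast sums lower, in every Ptgs-deficient library.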

How the data were processed

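The authors deposited 1 table of counts, not normalized, with 39179 Ensembl genes in 6 columns, 1 per library; 0 columns belonged to other samples and 0 rows lacked a gene identifier. Per the study's methods, the reads of a 3′ end kit (QuantSeq FWD) were trimmed with BBDUK, fqtrim and cutadapt, aligned with STAR to GRCm38 and counted with featureCounts. The submitters' processing notes name bcl2fastq, STAR and edgeR, with the builds mm10 and GRCm38. Reads were counted by the authors on a GRCm38 annotation release named in the study's methods. Versions of the tools, the strand option and the treatment of multiply aligned reads are not given in the sources used here. No molecular identifiers are stated, so PCR copies count as separate reads.

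The main test was run with edgeR 4.0.16 (R 4.3.3), without a replicate block. Of the counts, filterByExpr (minimum count 10, minimum total 15) kept 8793 genes. Scaling was by TMM, and the quasi-likelihood test was two-sided with Benjamini-Hochberg adjustment over all genes tested. For the test the study names edgeR's generalized linear model with TMM, a description that covers both the likelihood ratio and the quasi-likelihood form, of which the second was taken as main. The standard error is the size of the log2 fold change over the root of the F statistic, and fold changes are on the log2 scale, Ptgs-deficient over Ptgs-competent. Limma 3.58.1 and DESeq2 1.42.0 gave alternatives. The script was tested on simulated data. Patterns used log2 CPM with a prior count of 2. Positions are from GENCODE M21, which uses GRCm38. The members, the lists and the alternatives were chosen with earlier results of these data known.

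Named were all 9 members; from each pathway and reference list the genes called or else up to 4 with the smallest p, and paralogs of members; from each cell type list the defining markers at 0 and the 2 most abundant genes; and for Csf1r, Spi1 and Maf the 5 genes nearest in pattern, apart from genes that are not reported here.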

Additional observations from a re-analysis of the deposited data

How the results depend on the processing

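The number of genes called, 19, was 241 with edgeR's likelihood ratio test, 328 with DESeq2, 123 with limma voom and quality weights, 252 with no filter on low counts and 77 with the replicate block, and it ranged from 0 (without Ptgs-competent replicate 1) to 25 with 1 library left out. With scaling to the summed 9 genes or to other macrophage transcripts, both added after seeing the data, it was 1 and 2. Of the 9 genes none was called under any of the 18 alternatives except with no filter, where it was 1, Cebpb (2.28). The cause of these differences was not tested. The median log2 fold change of all genes was 0.39 with voom, 0.26 with the replicate block, -0.57 with scaling to the 9 genes and -0.90 with scaling to other macrophage transcripts.

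Adgre1, Cd68 and Cebpb stayed above 0 and Spi1 below 0 under all 18 alternatives. Maf turned to 0.028 with housekeeping scaling and to 0.034 with the replicate block, and ranged from -0.34 to 0.31 with 1 library left out. Csf1r was at -0.12 with scaling to the 9 genes and at -0.54 with scaling to other macrophage transcripts, both above the medians of all genes there, and with 1 library left out it ranged from -0.35 (without Ptgs-competent replicate 3) to 0.46. With scaling to other macrophage transcripts, Lyz2 was at -0.28, Cebpa at -0.11 and Zeb2 at -0.030, which are 0.62, 0.79 and 0.87 above the median of all genes. Cebpb ranged from 1.07 (without Ptgs-deficient replicate 2) to 2.76 with 1 library left out, Lyz2 from 0.20 to 0.69, Cebpa from 0.45 to 1.2 and Zeb2 from 0.39 to 0.96. Adgre1 had an unadjusted p below 0.05 under 13 of the 18 alternatives. The replicate numbers are only shared: same-numbered libraries correlated at -0.05, -0.02 and -0.02 in their deviations from group means, so the paired fit is not read further. The paralogs Lyz1 and Lyz2 may share reads. So may Csf1r and Hmgxb3, whose 3′ ends lie in shared bases. Cebpb and Tmem189, and Zeb2 and Zeb2os, may share reads where they overlap, which is away from the 3′ ends of Cebpb, Tmem189 and Zeb2.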
